A study of Homo sapiens with 4 samples.

Results

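This account follows 40 human genes that bring amino acids into the cell, make them, load them onto tRNA, or control those steps through the transcription factor ATF4. They are a list of names: 8 stress factors and stress targets, 10 enzymes of amino acid and one-carbon metabolism, 9 amino acid transporters and 13 cytosolic tRNA synthetases. All 40 were found among the 43450 Ensembl gene IDs of the deposited table, and 39 reached a mean of at least 1 FPKM (fragments counted, scaled to transcript length and library size) over the 4 libraries, the level needed to enter the test. NUPR1 did not reach it.

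The cells were BLaER1, an established human line of B cell leukaemia origin with an inducible transgene for C/EBPα, which drives it towards a macrophage-like state. Per the labels there were 2 control libraries and 2 HAL7 knockdown libraries, numbered 0 and 1 in each group, and both groups were grown in RPMI with serum, antibiotics and added L-glutamine. In the knockdown group, 3 antisense GapmeRs against the long non-coding RNA HAL7 had been put into the medium without a transfection step; the labels repeat that treatment text for the control libraries, so what the controls received is unclear, and no time of exposure is stated. Nothing in the labels says that the libraries came from separate cultures, so the p-values below reflect no more than the scatter among these 4 libraries, possibly a technical one. The B cell identity was present in the values: all 10 B cell markers examined had a mean above 1 FPKM, with a summed level of 3903 to 4027 FPKM per library. Of 10 myeloid markers 2 did, CSF1R and CD68, with a summed level over the 10 of 37.0 to 40.6 FPKM, and ELANE, S100A8 and S100A9 were at 0 in all 4 libraries. The 5 T cell and 4 erythroid markers summed to at most 0.0936 and 0.105 FPKM per library. HAL7 itself was at 0.726 and 0.613 FPKM in control and at 0.475 and 0.347 FPKM in knockdown libraries. The ratio of means was 0.614, and at this level HAL7 did not enter the test.

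ATF4 is the main effector of the integrated stress response. Kinases that sense amino acid shortage, haem shortage, viral RNA or unfolded protein phosphorylate the initiation factor eIF2, which slows translation in general while it favours translation of the ATF4 message through upstream reading frames. ATF4 protein then pairs with C/EBP family partners at a composite element, the C/EBP-ATF response element, and raises genes for amino acid uptake, serine and asparagine synthesis, mitochondrial folate metabolism and tRNA charging. Because much of this control acts on translation and on protein stability, the ATF4 mRNA level alone does not report the activity of the protein.

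The response element is shown first, because some of the genes below carry its core letters near their start. Its core letters TGATGNAA were searched on both strands of RefSeq promoter windows on GRCh38.p14 that run from 250 bases before to 50 bases after an annotated start. A window was matched for 31 of the 40 genes, and 11 of these (35.5%) held the letters, against 3.67% of 27305 promoters in RefSeq and 1.69% of 9460 promoters matched to genes tested here. The genes were listed around ATF4 and amino acid supply, so a higher share can follow from that choice alone. The share was 6 of 10 among tRNA synthetases, 3 of 7 among transporters, 1 of 7 among enzymes and 1 of 7 among stress factors. The windows of NUPR1, PSPH, SHMT2, PYCR1, SLC7A3, SLC7A11, LARS, VARS and YARS were not used here. The 11 matches are printed 5′ to 3′ on the strand that reads TGATGNAA, with those letters in capitals:
CHAC1, chr15:40953251-40953280, minus strand: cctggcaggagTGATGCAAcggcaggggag
ASNS, chr7:97872458-97872487, minus strand: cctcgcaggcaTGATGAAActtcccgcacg
SLC7A1, chr13:29595663-29595692, minus strand: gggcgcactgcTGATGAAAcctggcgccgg
SLC3A2, chr11:62881725-62881748, minus strand: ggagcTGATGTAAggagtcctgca
SLC38A1, chr12:46266502-46266531, minus strand: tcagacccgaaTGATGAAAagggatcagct
AARS, chr16:70289675-70289704, plus strand: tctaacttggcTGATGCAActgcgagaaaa
CARS, chr11:3057407-3057436, plus strand: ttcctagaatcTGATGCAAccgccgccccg
IARS, chr9:92293692-92293721, plus strand: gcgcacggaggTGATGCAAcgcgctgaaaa
MARS, chr12:57488053-57488082, minus strand: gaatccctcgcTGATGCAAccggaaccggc
NARS, chr18:57621804-57621833, minus strand: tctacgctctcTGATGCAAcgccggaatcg
TARS, chr5:33440956-33440985, minus strand: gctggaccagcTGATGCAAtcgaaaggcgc

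All 6 synthetase matches read TGATGCAA, as did that of CHAC1, 7 matches in all. ASNS, SLC7A1 and SLC38A1 read TGATGAAA, and SLC3A2 reads TGATGTAA. In the synthetases the match lay near the start, with its first base between 13 bases before it, in IARS, and base 15 of the transcript, in NARS. The exception was AARS, where it began 187 bases upstream. In ASNS, the asparagine synthetase gene whose promoter is the classic model of the amino acid response, it began 68 bases upstream of the start. The 250 bases upstream of ASNS, from chr7:97872409-97872658 on the minus strand, are printed with the match in capitals:
ASNS upstream: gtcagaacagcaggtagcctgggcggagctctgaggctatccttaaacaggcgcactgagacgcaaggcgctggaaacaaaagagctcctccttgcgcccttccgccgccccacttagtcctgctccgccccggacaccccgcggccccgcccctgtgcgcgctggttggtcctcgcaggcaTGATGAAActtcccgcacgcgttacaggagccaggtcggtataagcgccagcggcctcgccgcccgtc

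A match says only that the letters are there, and the letters are absent from the windows of well-known ATF4 targets such as TRIB3 and DDIT3. Of the 11 genes with a match, 8 had a positive and 3 a negative log2 change from control to knockdown, with a median of 0.05. Of 20 tested genes without one, 13 were positive and 7 negative, with a median of 0.02. The ranges overlapped, from -0.10 to 0.17 with a match and from -0.25 to 0.22 without.

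The pathway was strongly expressed in these cells in both groups. The median over the 39 tested genes was 129 FPKM, against 12.5 FPKM over all 12934 genes tested, and 27 of the 39 lay in the top 10% by mean level. ATF4 was the highest, at rank 141, and SLC7A11 the lowest of those tested, at rank 10914.

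**Figure D1:**
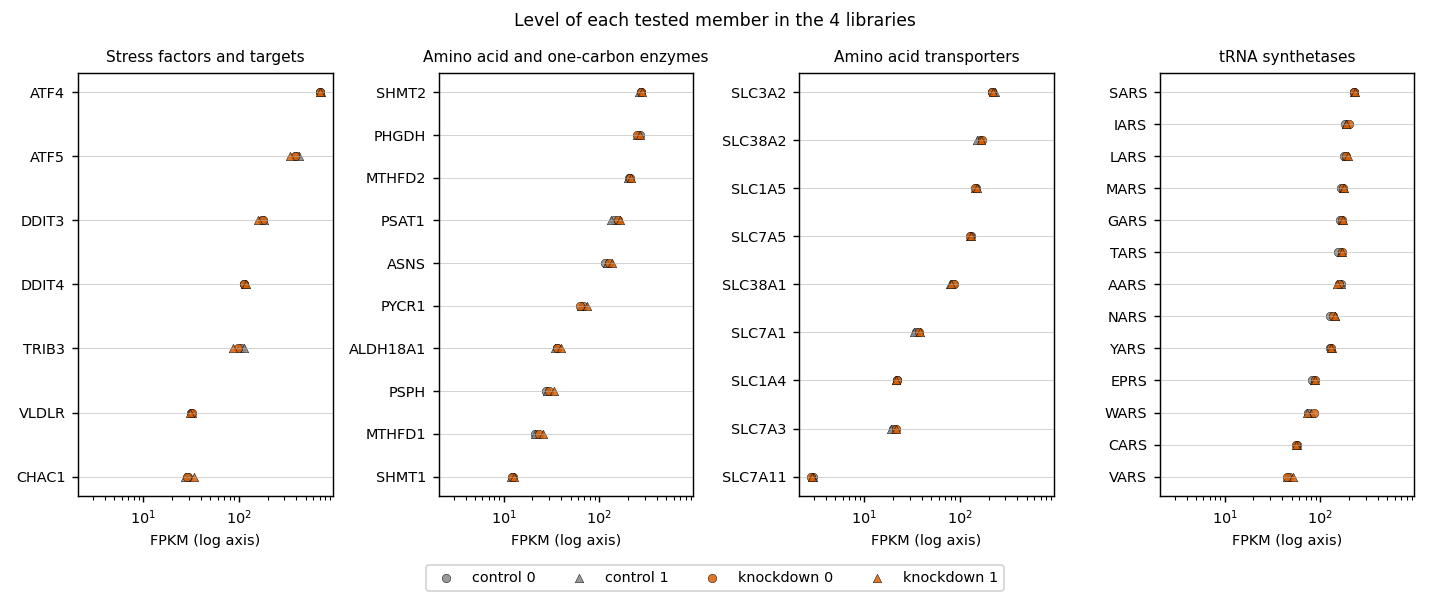
Level of the 39 tested genes (FPKM, log axis) in control libraries (grey) and knockdown libraries (orange), with circles for replicate 0 and triangles for replicate 1, ordered by mean level within each class. The 4 libraries lie close together for every gene, and ATF4 at 703 to 729 FPKM stands at the top.

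Knockdown was compared with control by limma on log2(FPKM + 1) over all 12934 genes, and log2 changes are on that scale. None of the 39 genes passed an adjusted p of 0.05, with a smallest limma adjusted p of 0.20, while 4 of all genes tested did (0.0309%). At an unadjusted p under 0.05, 5 of the 39 were higher in knockdown libraries (12.8%, against 7.25% of all genes tested) and 1 was lower (2.56%, against 9.36%). Over both directions together, 16.6% of all genes tested passed that level, and the 39 held no excess over that share. The counts of the 39 genes turned on single libraries. They were 9 higher and 4 lower without knockdown replicate 0 (8.17% and 10.2% of all genes), and 3 and 1 without knockdown replicate 1 (5.98% and 8.95%). Without control replicate 0 they were 2 and 1 (5.42% and 5.93%), and without control replicate 1 they were 1 and 0 (3.02% and 3.95%). Both knockdown libraries lay above both control libraries in 13 of the 39 (33.3%, against 22.5%) and below both in 6 (15.4%, against 27.7%). The log2 change was positive in 27 of the 39 (69.2%, against 46.8%), with a median of 0.04, against -0.01 over all genes tested.

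In 32 of the 39 genes the estimate lay within a factor of 1.1 of no change, against 73.5% of all genes tested. The precision of 2 libraries against 2 is limited: only in 4 genes, ATF4 not among them, did the whole 95% interval lie within that factor. Taken gene by gene, the intervals reached at the extremes a ratio of 0.741 on the lower side, for TRIB3, and of 1.29 on the higher side, for MTHFD1.

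**Figure D2:**
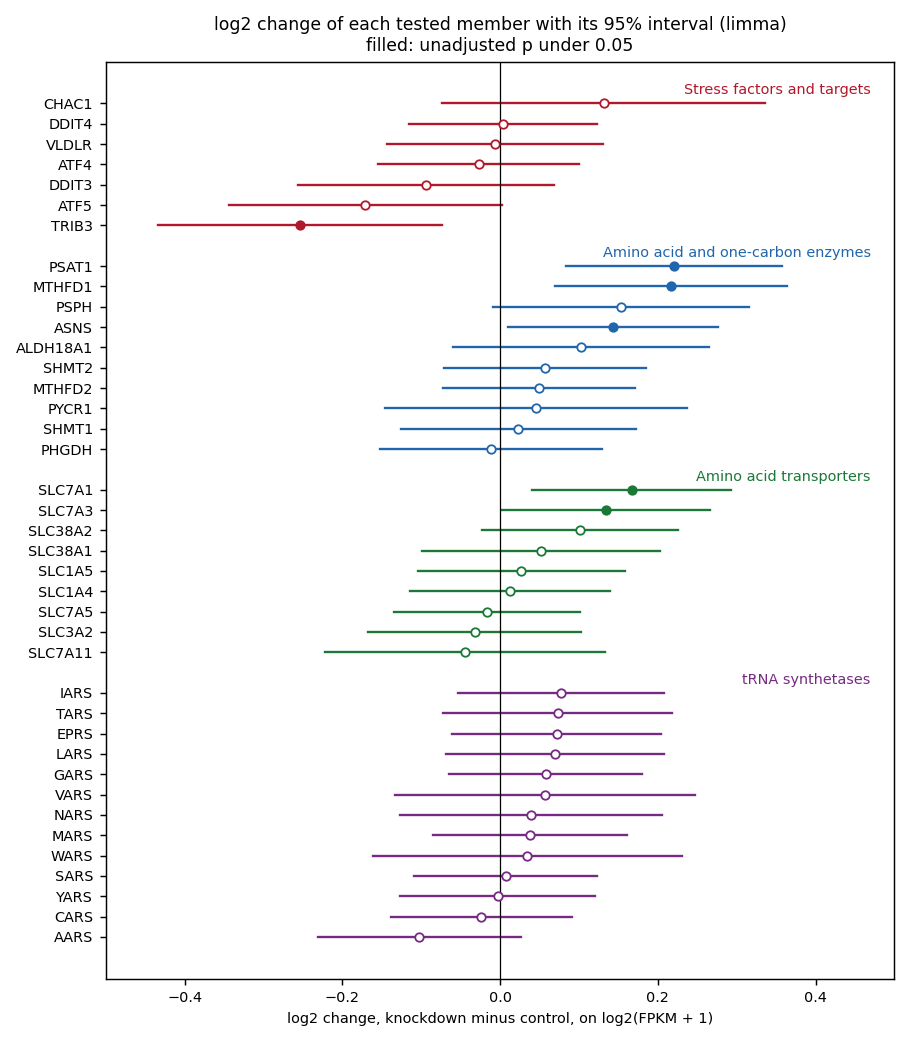
Log2 change from control to knockdown on log2(FPKM + 1) for the 39 tested genes, with 95% intervals from limma, by class; filled circles mark an unadjusted p under 0.05. The filled points are TRIB3 on the lower side and PSAT1, MTHFD1, ASNS, SLC7A1 and SLC7A3 on the higher side.

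Among the stress factors, ATF4 mRNA was nearly level between the groups. It stood at 712 and 729 FPKM in control replicates 0 and 1 and at 703 and 711 FPKM in knockdown replicates 0 and 1. The knockdown libraries were both lower, by a margin of under 2 FPKM between the nearest pair. Means were 721 ± 11.7 and 707 ± 5.38 FPKM (SD, n = 2 each), which gives a ratio of 0.981. Its log2 difference was -0.03 ± 0.05 (SE; limma, adjusted p = 0.83). The 95% interval, from -0.15 to 0.10, corresponds to ratios of 0.898 to 1.07. The sign of this change was positive, at 0.0214, once the trend with GC content was removed.

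TRIB3 had the largest log2 change of the 39 genes. It encodes a pseudokinase that ATF4 and DDIT3 induce and that feeds back on both. It stood at 106.0 and 113 FPKM in control libraries and at 97.9 and 86.1 FPKM in knockdown libraries, so the groups did not overlap. Means were 109.7 ± 5.28 and 92.0 ± 8.36 FPKM (SD, n = 2 each), which gives a ratio of 0.839. The log2 difference was -0.25 ± 0.07 (SE; limma, unadjusted p = 0.013, adjusted p = 0.21). Knockdown replicate 1 carried more of it: the log2 change was -0.16 without that library and -0.35 without knockdown replicate 0.

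ATF5 and DDIT3 leaned the same way, also most in knockdown replicate 1. ATF5, a related factor with the same type of translational control, stood at 395 and 426 FPKM in control and at 384 and 345 FPKM in knockdown libraries, a ratio of 0.889 with a limma adjusted p of 0.31. DDIT3, which encodes CHOP, a factor of prolonged stress, stood at 174 and 184 FPKM in control and at 177 and 159 FPKM in knockdown libraries, and there the groups overlapped. Without knockdown replicate 1 the log2 changes of ATF5 and DDIT3 were -0.09 and -0.02, and without knockdown replicate 0 they were -0.25 and -0.17. In the annotation, DDIT3 shares 355 exon bases (27.2% of its own) with MARS on the opposite strand and ATF5 shares 626 (21.2%) with NUP62. Strand-specific counting is not stated, so reads there could not be assigned to either gene with certainty. Such sharing was not particular to DDIT3 and ATF5. In all, 19 of the 40 genes share exon bases with another gene, 12 of them with one at a mean of at least 1 FPKM. MTHFD2 shares 27.2% with SLC4A5 on the opposite strand, a gene at a mean of only 3.45 FPKM. ASNS shares 44.6% with AC079781.5 on the same strand, a gene that has no value in the deposited data.

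The remaining stress targets overlapped between the groups or were too low. CHAC1, which encodes an enzyme that degrades glutathione and is among the most responsive ATF4 targets, stood at 29.5 and 27.3 FPKM in control and at 28.8 and 33.8 FPKM in knockdown libraries. The groups overlapped, and the positive log2 change of 0.13 came from knockdown replicate 1, since it was 0.02 without it. DDIT4, which restrains mTORC1, ranged from 114 to 118 FPKM over the 4 libraries, and the lipoprotein receptor gene VLDLR from 30.9 to 32.8 FPKM. NUPR1, a small chromatin-associated stress protein gene, was at 0.0143 to 0.0257 FPKM, too low to compare. Over the 7 tested stress factors, 2 changes were positive and 5 negative, with a median of -0.03. The eIF2 phosphatase subunit gene PPP1R15A, which ATF4 and DDIT3 also induce, is given with the other pathway genes below.

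The enzymes had the highest median log2 change of the 4 classes, 0.08. Of 10 tested, 9 had a positive log2 change (46.8% of all genes tested did). In 6 both knockdown libraries were above both control libraries (22.5% of all genes), and 3 were higher at an unadjusted limma p under 0.05 (7.25% of all genes), while 0 passed after adjustment.

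Serine is made from a glycolytic intermediate by 3 enzymes in turn, PHGDH, PSAT1 and PSPH, and their values were not alike. PHGDH, the first step, stood at 267 and 250.4 FPKM in control and at 250.04 and 263 FPKM in knockdown libraries. PSAT1, the transaminase of the second step, stood at 142 and 133 FPKM in control and at 157 and 165 FPKM in knockdown libraries. The PSAT1 groups did not overlap. Its means were 138 ± 6.32 and 161 ± 5.24 FPKM (SD, n = 2 each), which gives a ratio of 1.17. On the log2 scale the difference was 0.22 ± 0.06 (SE; limma, unadjusted p = 0.0071, adjusted p = 0.20). PSPH, the phosphatase of the last step, stood at 28.0 and 28.2 FPKM in control and at 29.6 and 33.2 FPKM in knockdown libraries (limma, adjusted p = 0.32). PSAT1 and PSPH lay higher in both knockdown libraries, and PHGDH did not.

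Serine then feeds the folate cycle, which carries single-carbon units for purine and thymidylate synthesis. The cytosolic trifunctional enzyme gene MTHFD1 had 21.1 and 21.1 FPKM in control and 23.6 and 25.8 FPKM in knockdown libraries. Its means were 21.1 ± 0.0247 and 24.7 ± 1.51 FPKM (SD, n = 2 each), which gives a ratio of 1.17. Its log2 difference was 0.22 ± 0.06 (SE; limma, unadjusted p = 0.011, adjusted p = 0.21). The mitochondrial enzyme gene MTHFD2, a well-known ATF4 target, was more abundant and nearly level, at 207 and 199.7 FPKM in control and at 208 and 213 FPKM in knockdown libraries. SHMT2, the mitochondrial serine hydroxymethyltransferase, had a ratio of 1.04 and its cytosolic counterpart SHMT1 a ratio of 1.02. The mitochondrial forms were the more abundant in both pairs, with SHMT2 at 261 to 282 FPKM and SHMT1 at 11.9 to 12.8 FPKM.

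ASNS, which makes asparagine from aspartate and glutamine and whose promoter is printed above, stood at 116 and 119 FPKM in control and at 126 and 134 FPKM in knockdown libraries. The groups did not overlap. Means were 117 ± 2.45 and 129.8 ± 6.09 FPKM (SD, n = 2 each), which gives a ratio of 1.11. The log2 difference was 0.14 ± 0.06 (SE; limma, unadjusted p = 0.039, adjusted p = 0.28). Of the proline pathway, ALDH18A1, the entry enzyme, stood at 36.1 and 34.7 FPKM in control and at 35.97 and 40.2 FPKM in knockdown libraries. PYCR1, which completes proline, stood at 66.7 and 64.9 FPKM in control and at 62.8 and 73.6 FPKM in knockdown libraries. Both groups overlapped, and in both genes knockdown replicate 1 was the highest library.

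That library was the highest of the 4 for 9 of the 10 enzymes, and the matching share over all genes tested was not computed. Relative to the control mean, the class median on the log2 scale was 0.03 in knockdown replicate 0 and 0.17 in knockdown replicate 1. Without knockdown replicate 1 the median change of the enzymes was 0.03, and without knockdown replicate 0 it was 0.17, so its size rested on that library.

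**Figure D3:**
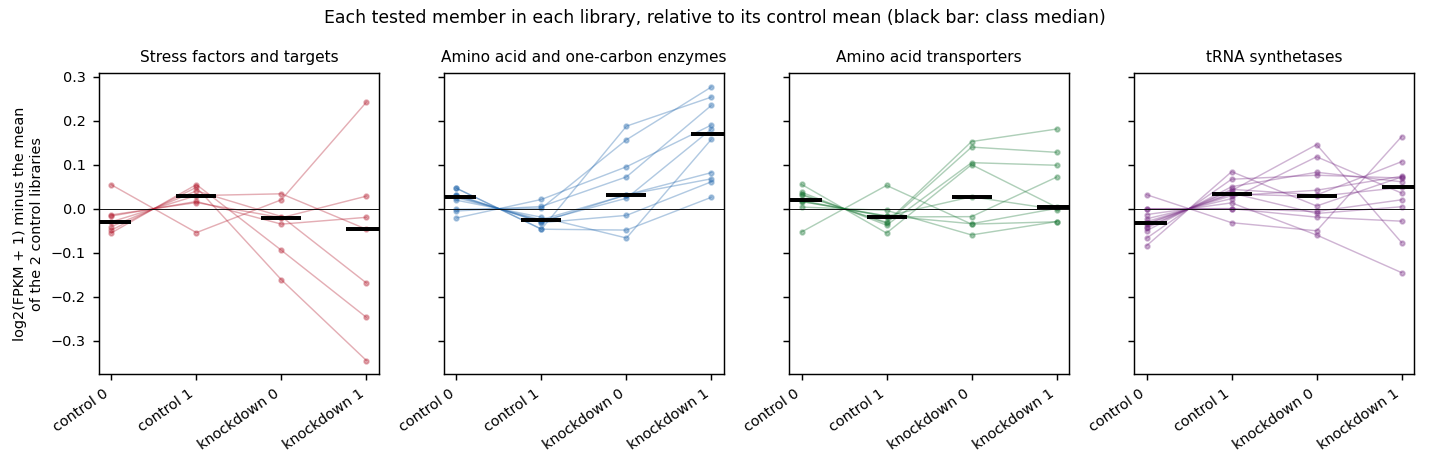
Each tested gene in each library as log2(FPKM + 1) minus its mean over both control libraries, by class; a thin line joins the values of 1 gene and a black bar marks the class median. The enzymes reach a median of 0.17 in knockdown replicate 1 and 0.03 in knockdown replicate 0, and the stress factors spread furthest in knockdown replicate 1.

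Of the transporters among the 40 genes, the cationic amino acid carrier genes SLC7A1 and SLC7A3 were higher in knockdown libraries. SLC7A2, a cationic carrier gene outside the 40, overlapped between the groups. SLC7A1, which imports arginine and lysine, stood at 34.7 and 33.2 FPKM in control and at 37.9 and 38.6 FPKM in knockdown libraries. The groups did not overlap. Means were 34.0 ± 1.06 and 38.3 ± 0.547 FPKM (SD, n = 2 each), which gives a ratio of 1.13. On the log2 scale the difference was 0.17 ± 0.05 (SE; limma, unadjusted p = 0.017, adjusted p = 0.23). SLC7A3, a related carrier, stood at 20.1 and 19.2 FPKM in control and at 21.8 and 21.6 FPKM in knockdown libraries, which gives a ratio of 1.102. Its log2 difference was 0.13 ± 0.05 (SE; limma, unadjusted p = 0.047, adjusted p = 0.29). SLC7A3 lies on the same chromosome as HAL7. On GRCh38 its gene spans 70925582 to 70931125 of chromosome X, on the minus strand, with a gap of 252.4 kb to HAL7. Genes within that gap were not examined here, and a link to the position of HAL7 was not tested. In SLC7A1 and SLC7A3 the knockdown libraries were close to each other. Both lay above both control libraries, so the log2 change was bound to stay positive with either left out.

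The other transporters differed less. SLC38A2, the adaptive glutamine and alanine carrier, stood at 161 and 153 FPKM in control and at 169 and 168 FPKM in knockdown libraries (limma, adjusted p = 0.37). Its relative SLC38A1 overlapped between groups, with a ratio of 1.04. SLC3A2 and SLC7A5, the heavy and light chains of the leucine exchanger LAT1, had ratios of 0.977 and 0.988, and the 95% intervals ran from -0.17 to 0.10 and from -0.13 to 0.10. SLC7A11, the light chain of the cystine exchanger that shares SLC3A2, was low, at 2.93 and 2.91 FPKM in control and at 2.76 and 2.84 FPKM in knockdown libraries. SLC1A5 and SLC1A4, carriers of small neutral amino acids, had ratios of 1.02 and 1.01. Of the 9 transporters 6 had a positive and 3 a negative log2 change, with a median of 0.03, and 0 passed after adjustment.

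The tRNA synthetases, which couple each amino acid to its tRNA, differed little. All 13 estimates lay within a factor of 1.1 of no change, 10 positive and 3 negative, with a median of 0.04. None had an unadjusted p under 0.05. SARS, the seryl enzyme and the most abundant, stood at 226 and 226 FPKM in control and at 225 and 229 FPKM in knockdown libraries. Those for glycine (GARS), isoleucine (IARS), threonine (TARS) and glutamate with proline (EPRS) had both knockdown libraries above both control libraries, at ratios of 1.04, 1.06, 1.05 and 1.05. Those for alanine (AARS) and cysteine (CARS) had both below. That made 4 higher and 2 lower of the 13, where 22.5% and 27.7% of all genes tested separated in these ways. AARS had the largest log2 change of the class, from 163 and 166 FPKM in control to 158 and 149 FPKM in knockdown libraries, or -0.10 ± 0.05 (SE) on the log2 scale (limma, adjusted p = 0.38).

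The enzymes for leucine (LARS), methionine (MARS), asparagine (NARS), valine (VARS), tryptophan (WARS) and tyrosine (YARS) overlapped between groups, with ratios from 0.998 for YARS to 1.05 for LARS. Control replicate 0 was the lowest of the 4 libraries in 8 of the 13 genes, and the matching share over all genes tested was not computed. Without that library the class median was 0.01, against 0.08 without control replicate 1. By the steps of low FPKM values described under processing, control replicate 0 was also the shallowest library, and the others were 1.59 to 2.12 times as deep. Its part in the synthetase values was not tested. WARS, which interferon also induces, was the most scattered in knockdown libraries, at 85.4 and 73.1 FPKM.

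Set side by side, the classes stood at median log2 changes of -0.03 for stress factors, 0.03 for transporters, 0.04 for synthetases and 0.08 for enzymes. The SD of these medians over the 4 pairings of a knockdown with a control library was 0.03, 0.02, 0.04 and 0.08 in the same order. The pairings reuse the same 4 libraries, so this SD is only a description. Without knockdown replicate 0 the medians were -0.05 for stress factors and 0.0035 for transporters. Summed over a class, FPKM ran from 1563 to 1630 in control and from 1484 to 1538 in knockdown libraries for stress factors, from 1125 to 1169 and from 1177 to 1243 for enzymes, and from 811 to 819 and from 829 to 836 for transporters. Those sums did not overlap between groups, with ratios of 0.947, 1.06 and 1.02, while those of the synthetases did. The stress factor sum is largely ATF4 and ATF5. Lack of overlap is common with so few libraries: 22.5% of all genes tested separated upward and 27.7% downward. No such share was computed for sums of genes.

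The rest of the pathway was read from 7 further gene lists with 109 entries, of which 98 were tested. In each list 0 genes passed limma over all genes. At an unadjusted p under 0.05, 5 of the 98 were higher and 2 lower, against 7.25% and 9.36% of all genes tested, so the further lists held no excess of such genes. Names below are taken from the 3 of smallest p in each list.

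Upstream of ATF4, among eIF2 kinases, eIF2 subunits and their regulators, 6 changes were positive and 9 negative, with a median of -0.01. PPP1R15A, the stress-induced subunit that returns eIF2 to its unphosphorylated state, stood at 39.7 and 41.1 FPKM in control and at 36.2 and 30.4 FPKM in knockdown libraries, a ratio of 0.825 with an unadjusted limma p of 0.016 and an adjusted p of 0.22. As with TRIB3, both knockdown libraries were below both controls and knockdown replicate 1 was the lower. EIF2B2, a subunit of the exchange factor that reloads eIF2, had a ratio of 0.913, and EIF2AK3, the kinase PERK of the endoplasmic reticulum, a ratio of 1.09.

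Other ATF4 targets had 11 positive and 6 negative changes, with a median of 0.04. SLC6A9, a glycine transporter gene, stood at 11.5 and 11.3 FPKM in control and at 13.3 and 14.9 FPKM in knockdown libraries, a ratio of 1.24 with an unadjusted limma p of 0.0055 and an adjusted p of 0.20. SESN2, a leucine sensor of the mTORC1 pathway, and SLC43A1, a carrier of branched-chain amino acids, had ratios of 1.09 and 1.10. Folate and glycine cleavage genes outside the 40 had 15 positive and 3 negative changes, with a median of 0.10, the highest of the lists. Over all genes tested, 46.8% were positive. In 9 of these 18 genes both knockdown libraries lay above both control libraries (22.5% of all genes tested), and in 1 both lay below (27.7%). DLD, the dehydrogenase shared by the glycine cleavage system and the 2-oxoacid dehydrogenases, stood at 35.6 and 34.3 FPKM in control and at 40.8 and 41.6 FPKM in knockdown libraries (limma, unadjusted p = 0.0033, adjusted p = 0.19). GGH, which trims folate chains, had a ratio of 1.16, and AMT, a glycine cleavage subunit, one of 0.868. Relative to control, this list too was higher in knockdown replicate 1, with a median of 0.14, than in replicate 0, with 0.05.

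Other amino acid enzymes had 4 positive and 5 negative changes, with a median of -0.01. ASS1, which makes argininosuccinate on the way to arginine, had a level near that of ATF4, at 737 and 728 FPKM in control and at 665 and 650.1 FPKM in knockdown libraries. The groups did not overlap, and the ratio was 0.898 with an unadjusted limma p of 0.024 and an adjusted p of 0.24. Beside it, SLC7A1 and SLC7A3, which bring arginine in, had positive changes, while the cationic carrier gene SLC7A2 overlapped between the groups. None of these genes passed after adjustment in limma, and a link between their changes was not tested. ASL, the next enzyme to arginine, had a ratio of 0.956 and PYCR3, of proline synthesis, one of 1.13. Other amino acid transporters had 5 positive and 7 negative changes, with a median of -0.01 and 0 at an unadjusted p under 0.05. Here the mitochondrial aspartate and glutamate carrier gene SLC25A13, the cationic carrier gene SLC7A2 and the glutamine carrier gene SLC38A5 had ratios of 1.08, 1.08 and 1.06.

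Synthetases outside the 40 gave a further comparison. Other cytosolic synthetases with proteins of the multisynthetase complex had 7 positive and 3 negative changes, with a median of 0.02. EEF1E1, a protein of that complex, stood at 34.4 and 34.7 FPKM in control and at 38.4 and 40.5 FPKM in knockdown libraries (limma, unadjusted p = 0.012, adjusted p = 0.21). RARS and FARSB, for arginine and phenylalanine, both had ratios of 1.09. Mitochondrial synthetases, a separate set of nuclear genes, had 10 positive and 7 negative changes, with a median of 0.01. YARS2 had a ratio of 1.12 and SARS2 one of 0.933. The compartments differed in level, with a median of 11.4 FPKM over 17 mitochondrial and 159 FPKM over the 13 cytosolic enzymes among the 40. Of matched promoters, 1 of 14 mitochondrial and 0 of 9 other cytosolic ones held the TGATGNAA letters, beside the 6 of 10 given above. How the 40 were chosen bears on that contrast too. In the remaining lists it was 3 of 15 other ATF4 targets, 1 of 6 other amino acid enzymes, 1 of 15 other transporters, 1 of 14 eIF2 genes and 1 of 14 folate and glycine genes.

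**Figure D4:**
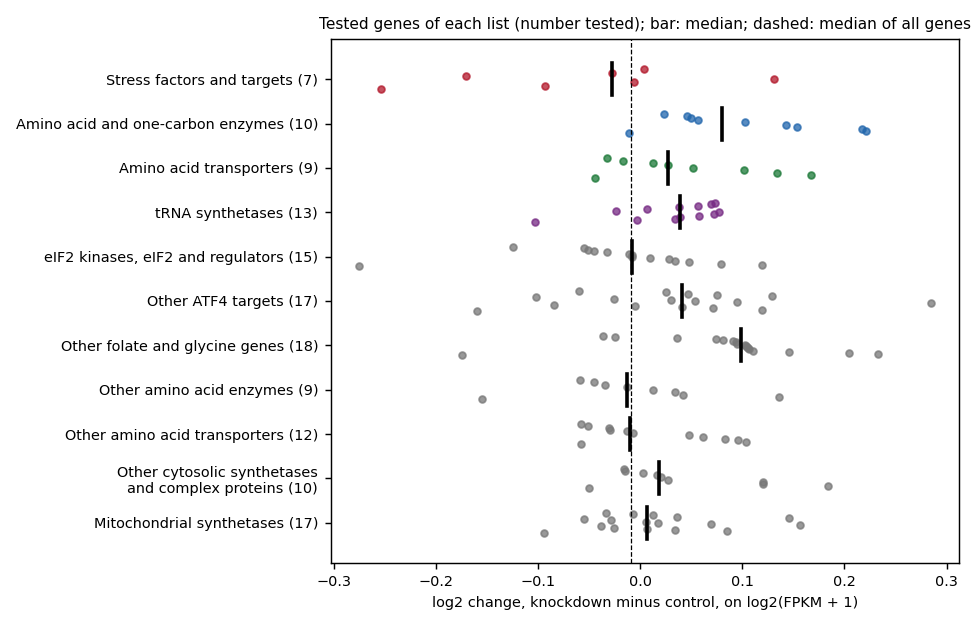
Log2 change of every tested gene in the 4 classes (coloured) and the 7 further lists (grey), with the number tested; black bars are medians and the dashed line is the median of all genes tested, -0.01. The folate and glycine list and the enzymes have the highest medians, 0.10 and 0.08.

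Base composition moved with the changes. Over 12498 tested genes with a known transcript, GC-rich transcripts had lower log2 changes, with a Spearman correlation of -0.41 across genes, which are not independent and come from the same 4 libraries. Over the 39 genes it was -0.36. TRIB3, ATF5 and SLC7A5, at 60.9%, 60.0% and 61.1% GC, lay on the lower side, and PSAT1, at 42.3% GC, on the higher side. Against the trend, CHAC1, VARS, PYCR1 and SLC1A5, at 62.6%, 62.6%, 61.8% and 61.3% GC, were on the higher side. SLC7A11, the lowest in GC at 35.4%, was on the lower side. With the GC trend removed from each library, the log2 change was -0.18 for TRIB3, -0.11 for ATF5, 0.18 for PSAT1, 0.22 for MTHFD1, 0.14 for ASNS, 0.19 for SLC7A1 and 0.16 for SLC7A3. After that step 7 of the 39 genes were higher and 0 lower at an unadjusted p under 0.05, against 6.24% and 7.19% of all genes in the same fit, and 0 passed after adjustment in limma. In RNA from whole cultures, a different mix of cell states and a change of RNA per cell cannot be told apart.

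**Figure D5:**
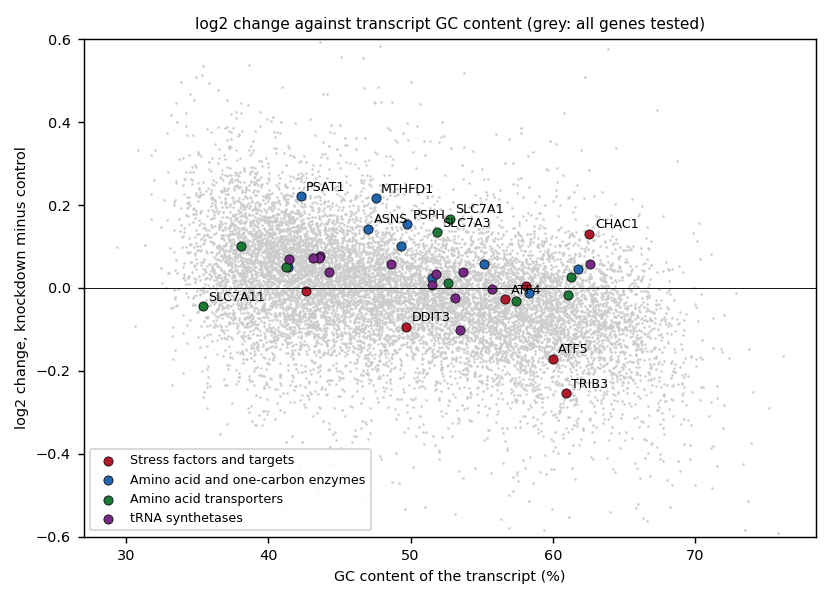
Log2 change from control to knockdown against the GC content of the transcript (%), for all tested genes with a known transcript (grey; 56 genes beyond 0.6 on either side are outside the frame) and the 39 genes by class. The grey cloud slopes downward, with TRIB3 and ATF5 at the GC-rich lower edge and CHAC1 above it.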

How the data were processed

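The deposited values were read as FPKM, since per the file headers the ID column is named as in Cuffdiff tables and the values are neither whole nor negative. The submitters' processing notes name hg19 as the build and, as tools, Cuffdiff 2.2.1, TopHat2 2.0.14 and Bowtie2 2.2.5. No options, annotation or scaling are stated there. Names, exons and GC content came from GENCODE 29 on GRCh38 and promoters from RefSeq on GRCh38.p14, so positions are not on the authors' build. In R 4.3.3, limma 3.58.1 was fitted to log2(FPKM + 1) of the 12934 genes whose mean reached 1 FPKM, with a variance trend. The p-values are two-sided and were adjusted over all of these genes by Benjamini-Hochberg. The fit was also run on simulated data, with planted changes much larger than those described above. That run therefore does not bear on changes as small as these. Low values of 1215 single-transcript genes fell on steps that give relative depths of 1, 2.12, 1.78 and 1.59 for control replicates 0 and 1 and knockdown replicates 0 and 1.

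The 40 genes and the further lists were chosen with earlier results of these data known. All 40 are named; of each further list, the 3 genes of smallest p, of which 1 is not reported here. Alternatives were pseudocounts, filters, normalizations, a block on replicate number, removal of the GC trend and leaving out each library.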

Additional observations from a re-analysis of the deposited data

How the results depend on the processing

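Under the 13 other fits, 0 of the 39 genes passed an adjusted p of 0.05 in limma; the smallest adjusted p ranged from 0.12 without knockdown replicate 0 to 0.70 without control replicate 1. At an unadjusted limma p under 0.05 in the main fit, in either direction, there were 6 of the 39 genes and 2148 of all 12934 genes tested (16.6%). Over both directions together the 39 thus held no excess. The count over all genes, 4, was 2 with a pseudocount of 0.1, 0 without a filter and 1 at a mean of at least 5 FPKM. It ranged from 11 to 26 with 1 library left out. With the replicate block it was 19, with 0 of the 39 genes among them; same-numbered libraries deviated together with a correlation of 0.12 over genes, which does not establish a pairing. With 1 library left out, the median log2 change ranged from 0.0316 to 0.17 for enzymes and from 0.0035 to 0.0456 for transporters. ATF4 turned to 0.0214 with the GC trend removed and stood at 0 with quantile normalization. PSAT1, MTHFD1, ASNS, SLC7A1, SLC7A3 and TRIB3 had the same sign in all 13 fits. Their groups did not overlap, so leaving out a library or changing pseudocount, filter, variance trend or block could not turn the sign. Only the normalizations and removal of the GC trend could have done so. With 2 libraries a group, a group reduced to 1 library took its spread from the remaining group.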
